A study of Mus musculus with 4 samples.

Results

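The genes described here are the mouse spermatogenesis-associated genes, whose symbols begin with Spata and a number. The symbol pattern picked 29 of the 17934 genes in the tables, and all 29 had a mean of at least 1 CPM (assigned reads scaled to 1000000 per library, the deposited unit) over the libraries, so none was lost to the filter on low values. Their RNA was compared between 2 testis libraries of Tas1r3-/- mice (KO) and 2 testis libraries of Tas1r3+/+ mice (WT). All animals were male C57BL/6 mice on a western diet for 18 weeks, so the diet is shared by both genotypes and its own effect cannot be read from these samples. Tas1r3 encodes a subunit common to the sweet and umami taste receptors, and the comparison asks whether its loss changes testicular transcripts under that diet. Ages are not given in the sources used here, nor are the deletion's design or pooling of animals. Nothing in the labels says whether each library is from an animal of its own. The p-values therefore rest only on how far these libraries differ, and that spread may be technical.

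The Spata symbol names genes found through expression in the testis and is not a single protein family. Most members act late, in spermatids, the haploid cells that build the acrosome, condense the nucleus, couple head to tail and wrap mitochondria round the midpiece. A few members work in many cell types, among them adaptors of ubiquitin signalling and AAA ATPases that take part in ribosome maturation. Several are known from loss-of-function animals or patients: SPATA16 from human globozoospermia, in which sperm heads lack an acrosome, and Spata6 from mice whose sperm heads and tails part.

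The libraries differed in depth and the targeted gene followed its labels. From the CPM value that 1 read takes, KO replicates 1 and 2 held an estimated 748638 and 597937 assigned reads, against 1719356 and 1807697 for WT replicates 1 and 2. Tas1r3 had 1.34 and 0 CPM in KO, against 13.8 and 20.5 CPM in WT, a log2 change of -3.54 (SE 0.61; limma, BH-adjusted p = 0.627), lower in both KO libraries. Genes of elongating spermatids summed to 33902 and 44680 CPM in KO and to 38356 and 38540 CPM in WT, so the defining transcripts of late spermatids were abundant in every library. Of 10 spermatocyte markers 0 were called and 9 lay above 0, and they summed to 1896 and 2006 CPM in KO, against 1831 and 1723 CPM in WT, without overlap. Sums were also without overlap for 9 measured spermatogonia markers (179 and 189 CPM in KO, 170 and 149 CPM in WT), 7 endothelial markers (58.1 and 39.7 CPM in KO, 59.1 and 72.2 CPM in WT) and 8 Leydig cell markers (1650 and 1697 CPM in KO, 1810 and 1899 CPM in WT). The spermatogonia list had 6 genes above 0 and 3 below. Of these 3, Sall4 had 1.379e-06 and 1.335e-10 CPM in KO, against 12.09 and 7.153 CPM in WT. The endothelial list had 4 genes above 0 and 3 below, with a median log2 change of 0.201, although its sum was lower in KO. The Leydig sum is mostly Insl3, with 1234 and 1278 CPM in KO and 1517 and 1464 CPM in WT, while the list had 4 genes above 0 and 4 below. Sums of round spermatid, elongating spermatid, Sertoli cell, macrophage and red blood cell markers overlapped between genotypes, and the part of any of these cell types in the results was not tested. Over all 17654 genes tested, 1 gene passed, which is 0.00566% (limma, a moderated linear model on log2(CPM + 1), with Benjamini-Hochberg adjustment over all genes).

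The Spata genes were abundant and did not pass the test in either direction. Together they took 9787 and 10565 CPM in KO libraries and 10259 and 10492 CPM in WT libraries, a mean of 10176 ± 550 CPM in KO and 10375 ± 165 CPM in WT (SD, n = 2 each). That is 0.979% and 1.06% of the KO libraries and 1.03% and 1.05% of the WT libraries, and the WT sums lie between the KO sums. In whole-testis RNA, fewer cells of a type and less RNA per cell cannot be told apart. None of the 29 members was called (limma, BH-adjusted p from 0.950 to 0.997, set against 0.00566% of all genes called), and 0 members had an unadjusted p under 0.05, against 4.33% of all genes.

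The size of the differences was small. The median log2 change over the 29 members, KO minus WT on the log2(CPM + 1) scale, was -0.04, beside -0.04 over all genes tested. The members ranged from -0.53 for Spata2 to 0.24 for Spata4, with 13 above 0 and 16 below, while 55.1% of all genes lay below 0. A missed threshold does not show equal levels, but the intervals give a range for the change between these libraries. That range rests on the spread of 2 libraries per genotype, which may be technical. It may therefore not bound a difference between animals. For 27 members the 95% interval from limma lay inside a 2-fold change in either direction, which held for 42.3% of all genes. The other two were Spata2 and Spata5l1, which had few reads. For 20 members the interval lay inside a 1.5-fold change, for which the share over all genes was not taken. Intervals are wider at low levels, and 62.1% of the members but 12.3% of all genes averaged at least 100 CPM. The count of 27 and the share of 42.3% are therefore not compared at like levels.

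**Figure D1:**
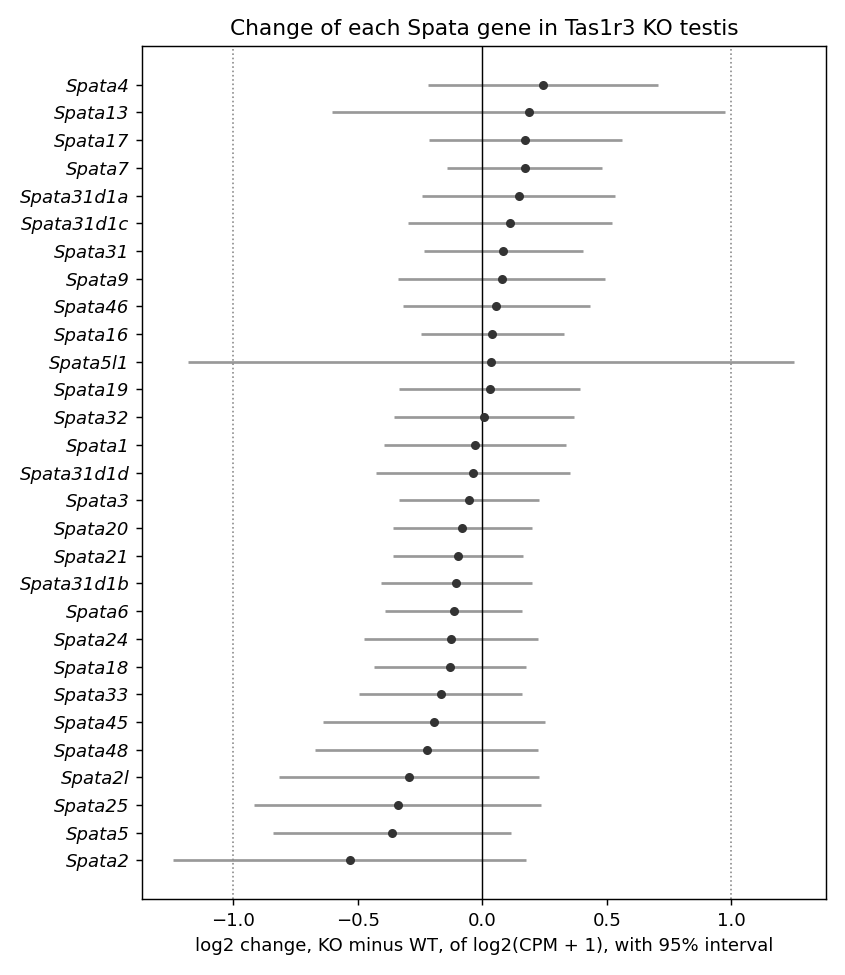
Log2 change of each of the 29 Spata genes, KO minus WT on the log2(CPM + 1) scale (x axis), with its 95% interval from limma over 2 KO and 2 WT libraries. Dotted lines mark a 2-fold change. Every interval crosses 0, and those of Spata2 and Spata5l1 pass a dotted line.

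Genotypes were separated without overlap for 9 members. KO libraries were both higher for Spata7, Spata16, Spata17, Spata31 and Spata31d1c, and both lower for Spata2, Spata2l, Spata5 and Spata48. Over all genes, 34.3% did not overlap, 15.1% with KO higher and 19.2% with KO lower, so a count of 9 in 29 is near that background. For the remaining 20 members the values of the genotypes overlapped.

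**Figure D2:**
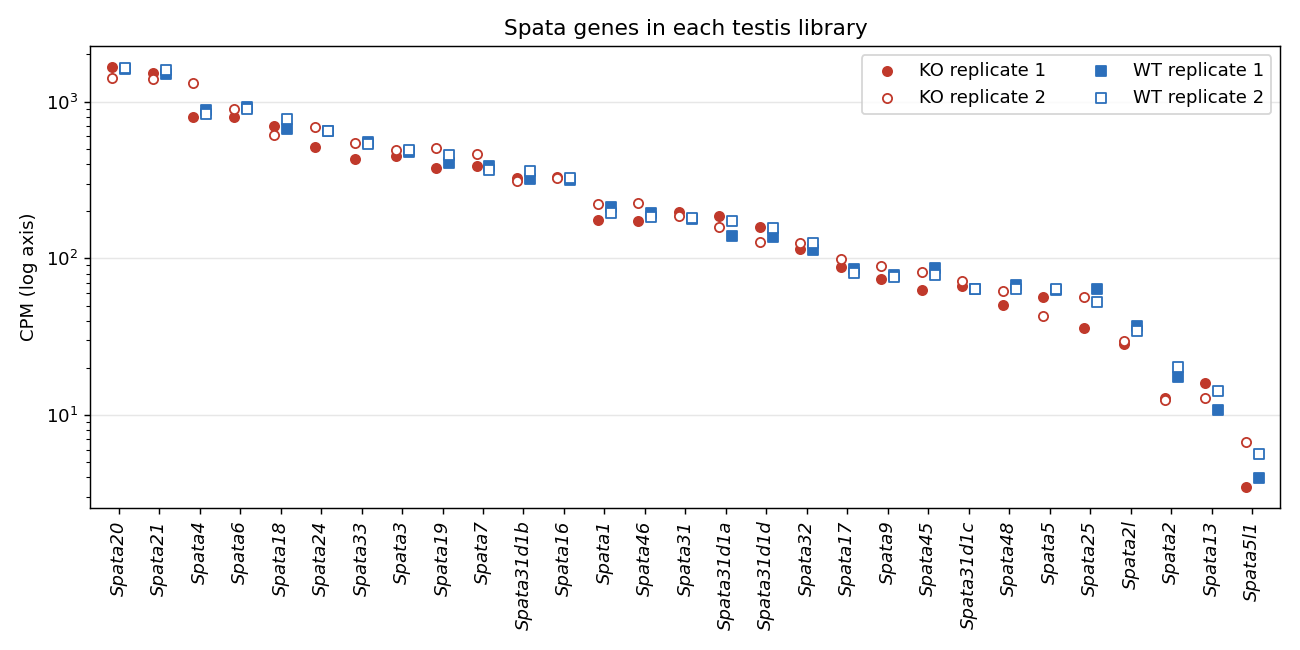
CPM of each Spata gene (log axis) in KO replicates 1 and 2 (circles) and WT replicates 1 and 2 (squares), genes ordered by mean. Spata20 and Spata21 stand highest, between 1395 and 1664 CPM in every library, and Spata5l1 lowest, between 3.48 and 6.69 CPM.

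Levels between genes are compared per transcript length, as CPM per kb of the annotated transcripts. On that scale the family is led by Spata33 with 943 ± 159.5 CPM per kb in KO and 1051 ± 17.9 in WT (SD, n = 2 each), then Spata4 with 995 ± 343 in KO and 815 ± 38.3 in WT, and Spata24 with 852 ± 176 in KO and 919 ± 1.21 in WT. The ranges of these 3 genes over the libraries overlap, so their order is not resolved. Spata19, Spata20, Spata21 and Spata3 follow with means over the 4 libraries of 621, 610, 598 and 568 CPM per kb. At the low end stand Spata2 with 3.93, Spata5l1 with 2.12 and Spata13 with 2.03 CPM per kb. Of 28 neighbouring pairs in the order, 10 had ranges that did not overlap. By level per kb, 19 members were above the 90th percentile of the genes tested and 3 below the median.

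Among genes of the acrosome and sperm head, Spata16 was the steadiest. It encodes a Golgi protein needed for acrosome formation, lies at chromosome 3, 26691780 to 27037362 on mm39, and had 333 and 326 CPM in KO, against 316 and 324 CPM in WT. KO was higher in both libraries, by a log2 change of 0.04 (SE 0.13), and did not pass (limma, BH-adjusted p = 0.982). Spata1, whose product binds the transport protein Ift20, had 177 and 224 CPM in KO and 212 and 195 CPM in WT. Spata46, a nuclear envelope protein needed for sperm-egg fusion in mice, had 172 and 224 CPM in KO and 195 and 183 CPM in WT. In both genes the KO libraries lie on either side of the WT libraries. The span of Spata1 also overlaps that of Ctbs, on the opposite strand, by 8648 bases. Spata32, an acrosome protein gene, had 115 and 125 CPM in KO and 113 and 126 CPM in WT, with a log2 change of 0.01 and a 95% interval from -0.35 to 0.37. Its span overlaps by 423 bases that of Efcab15 on the same strand. Spans include introns and whether exons are shared was not tested, but reads from any shared exon cannot be told apart.

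Spata31 and its paralogs belong to a family of large testis proteins on chromosome 13, of which Spata31d1a and Spata31d1b are near copies at the 5′ end of the coding sequence. The stretch below is the start of each coding sequence (GENCODE M21, build GRCm38, 180 bases from the start codon; Spata31d1a on the minus and Spata31d1b on the plus strand) and is shown because a read that lies in its shared part cannot be assigned to either copy. Capitals mark the 4 bases that differ between the copies; the 140 bases from the start codon up to the nearest of them are the same.
Spata31d1a: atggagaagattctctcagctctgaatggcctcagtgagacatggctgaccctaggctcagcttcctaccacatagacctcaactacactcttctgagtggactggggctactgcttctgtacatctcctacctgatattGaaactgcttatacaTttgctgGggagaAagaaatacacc
Spata31d1b: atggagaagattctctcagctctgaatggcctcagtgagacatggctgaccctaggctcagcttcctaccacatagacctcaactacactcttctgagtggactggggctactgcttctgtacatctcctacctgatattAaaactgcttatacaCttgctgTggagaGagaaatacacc
Of all windows of 50 bases, 25.0% of those in the Spata31d1a transcript also occur in Spata31d1b, and 24.9% in the other direction. Among the other pairs of the 5 Spata31 transcripts compared, 0 windows were shared.

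Values of these paralogs stayed close between genotypes. Spata31d1a had 186 and 158 CPM in KO, against 138 and 174 CPM in WT. Spata31d1b, with a coding start that the copy shares, had 324 and 312 CPM in KO, against 321 and 363 CPM in WT. Summed, Spata31d1a and Spata31d1b had 510 and 470 CPM in KO and 459 and 537 CPM in WT, so the genotypes overlapped. The sum does not depend on how shared reads were divided between the copies. It lacks such reads if they were discarded, which the sources used here do not say. Spata31d1d had 159 and 127 CPM in KO and 136 and 156 CPM in WT. For Spata31d1c and Spata31 the KO libraries were both higher, with 66.8 and 71.9 CPM in KO and 64.0 and 64.2 CPM in WT for Spata31d1c, and 196 and 186 CPM in KO and 178 and 182 CPM in WT for Spata31. Neither passed (limma, BH-adjusted p = 0.963 for both).

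None of the genes of the sperm neck and tail passed the test. Spata6, required for the connecting piece that joins head and tail, had 793 and 893 CPM in KO, against 930 and 893 CPM in WT, a log2 change of -0.11 with a 95% interval from -0.39 to 0.16. Spata17, which encodes an IQ-motif protein that binds calmodulin, had 88.2 and 98.7 CPM in KO, against 85.1 and 80.2 CPM in WT, and was higher in both KO libraries. Spata48, a microtubule-associated sperm gene, had 50.7 and 61.8 CPM in KO, against 67.5 and 63.6 CPM in WT, and was lower in both. Neither passed (limma, BH-adjusted p = 0.950 for both). Without KO replicate 2 the log2 change of Spata17 was 0.093, beside 0.17 with all libraries, and that of Spata48 was -0.36, beside -0.22 with all libraries and -0.082 without KO replicate 1. The span of Spata17 overlaps Gm15509 on the same strand by 3498 bases and 1700007P06Rik on the opposite strand by 2716 bases. Spans include introns, and whether exons are shared was not tested.

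Spata4, a testis gene of no settled role, had the largest positive change of the family, and its KO libraries lay furthest apart in terms of counting error. It lies at chromosome 8, 55053816 to 55063134 on the plus strand of mm39 and had 795 and 1308 CPM in KO, against 890 and 833 CPM in WT. KO replicate 2 stood above every other library and KO replicate 1 below both WT libraries. The KO libraries differed by 9.25 times the counting error of their 595 and 782 estimated reads, so the gap is larger than counting error. Its log2 change of 0.24 (SE 0.20) did not pass (limma, BH-adjusted p = 0.950). Without KO replicate 1 the log2 change was 0.60 and the gene was called (limma, BH-adjusted p = 6.75e-05), in a fit that takes its spread from the WT pair alone and calls 954 genes, and without KO replicate 2 it was -0.12. The direction therefore rests on KO replicate 2.

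Mitochondrial members did not separate the genotypes. Spata33, which ties the phosphatase calcineurin to sperm mitochondria, had 430 and 547 CPM in KO, against 551 and 538 CPM in WT. Spata19, a midpiece mitochondrial protein needed for male fertility in mice, had 379 and 507 CPM in KO, against 406 and 454 CPM in WT. Spata18, also called Mieap, a regulator of mitochondrial quality, had 701 and 614 CPM in KO, against 664 and 775 CPM in WT. Spata33 and Spata19 were lower in KO replicate 1 than in KO replicate 2, Spata18 was higher, and in all 3 genes the genotypes overlapped. The 3 genes sum to 1511 and 1667 CPM in KO and 1621 and 1767 CPM in WT.

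Of the signalling adaptors, Spata2 lay furthest below 0 of all 29 members, at low read numbers. Spata2, which links the deubiquitinase CYLD to the linear ubiquitin ligase complex, had 12.8 and 12.5 CPM in KO, against 17.5 and 20.1 CPM in WT, from 9.6 and 7.5 estimated reads in KO and 30 and 36.4 in WT. The log2 change was -0.53 with a 95% interval from -1.24 to 0.18. Its paralog Spata2l had 28.2 and 29.9 CPM in KO, against 37.2 and 34.5 CPM in WT, a log2 change of -0.29 with an interval from -0.82 to 0.23. Both genes were lower in both KO libraries and neither passed (limma, BH-adjusted p = 0.950 for both). Spata2l overlaps by 1169 bases a gene on the opposite strand, 4933417D19Rik, with 36.1 and 36.8 CPM in KO and 43.6 and 42.6 CPM in WT. Spata2 overlaps Rnf114 on the opposite strand by 231 bases, and Rnf114 had 76.7 and 69.2 CPM in KO and 63.6 and 65.0 CPM in WT. These overlaps are of gene spans, which include introns, and whether exons are shared was not tested. The sources used here do not say whether counting used strand, so reads from any shared exon cannot be told apart. Spata13 had 16.03 and 12.8 CPM in KO and 10.8 and 14.3 CPM in WT.

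Of the AAA ATPase genes, Spata5 had the smallest unadjusted p of the family, 0.122. It had 56.9 and 42.8 CPM in KO, against 63.2 and 64.2 CPM in WT, a log2 change of -0.36 (SE 0.21) with a 95% interval from -0.84 to 0.12. Both KO libraries were below both WT libraries, and the gene did not pass (limma, BH-adjusted p = 0.950). Its log2 change was -0.56 without KO replicate 1 and -0.16 without KO replicate 2. Its paralog Spata5l1 had 2.6 and 4.0 estimated reads in KO and 6.8 and 10.2 in WT, and its 95% interval, from -1.18 to 1.25, leaves changes of over 2-fold in either direction unresolved at this depth. Spata7, a protein of the ciliary connecting zone known from human retinal dystrophy, had 389 and 461 CPM in KO, against 386 and 367 CPM in WT. Its KO libraries were both higher, by a log2 change of 0.17 with an interval from -0.14 to 0.48, and it did not pass (limma, BH-adjusted p = 0.950). Leaving out KO replicate 1 gave a log2 change of 0.29, and leaving out KO replicate 2 gave 0.047.

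The highest and the less characterised members did not pass the test either. Spata20, a thioredoxin-domain protein gene of spermatids, had 1664 and 1413 CPM in KO, against 1608 and 1634 CPM in WT, and Spata21, a calcium-binding protein gene, had 1513 and 1395 CPM in KO, against 1508 and 1599 CPM in WT. Together with Spata4 and Spata6 they made up 48.7% and 47.4% of the family's CPM in KO and 48.1% and 47.3% in WT. Spata24, whose product binds factors of the TATA-binding protein family, had 516 and 692 CPM in KO, against 651 and 652 CPM in WT. KO replicate 1 was the lowest library for Spata24 and KO replicate 2 the highest. For the next 4 genes no role is given here. Spata3 had 450 and 489 CPM in KO, against 480 and 493 CPM in WT, with 1 KO library inside the WT range. Spata25 had 36.1 and 56.9 CPM in KO, against 63.4 and 52.3 CPM in WT, a log2 change of -0.34 with a 95% interval from -0.92 to 0.24, which was -0.018 without KO replicate 1 and -0.66 without KO replicate 2. Spata45 had 62.8 and 81.9 CPM in KO, against 86.7 and 78.0 CPM in WT, and Spata9 had 73.5 and 89.9 CPM in KO, against 78.2 and 75.7 CPM in WT. In every gene of this paragraph the KO libraries lie further apart than the WT libraries. The median absolute log2 gap over the 29 members was also larger in KO, 0.25 against 0.09 in WT. For Spata9 and Spata25 the KO gaps were 1.05 and 1.78 times the counting error, inside its 95% range.

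Members with short transcripts were higher in KO replicate 2 than in KO replicate 1, and members with long transcripts lower. Of 11 members with a mean transcript length of up to 1200 bases, 11 were higher in KO replicate 2, with a median log2 ratio of 0.38. Of 10 members longer than 2500 bases, 9 were lower in KO replicate 2, with a median of -0.17, and the exception was Spata31d1c. Across the 29 members, Spearman's rho between length and this ratio was -0.77, and it was -0.83 over the 26 members with a mean of at least 20 CPM. These are correlations across genes of the same libraries, given as a description, since genes share library and depth and are not independent replicates.

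The KO pattern was also present, less steeply, over all genes. Among all 7364 genes that averaged 20 CPM or more the rho was -0.35, and the median log2 ratio was 0.28 over 1089 genes of up to 1200 bases and -0.17 over 4073 genes above 2500 bases. Between WT replicates the members showed a weaker relation of opposite sign, a rho of 0.56, with the 10 long members all higher in WT replicate 2 by a median of 0.13. Over all genes the WT relation was near absent, with a rho of 0.087 and a median of 0.014 over the 4073 long genes, of which 2146 were above 0. Between genotypes the rho over the 29 members was 0.12. The sum of elongating spermatid markers was also higher in KO replicate 2 (44680 CPM) than in KO replicate 1 (33902 CPM), with Tnp1 at 8148 and 4590 CPM and Prm1 at 5056 and 3084 CPM in those libraries. Of the 10 markers 7 were higher in KO replicate 2, and 3 (Odf1, Odf2 and Gapdhs) were lower. In WT, Tnp1 had 5457 and 5626 CPM and Prm1 4432 and 4206 CPM. The part of transcript length, depth and late spermatid RNA in the KO gap was not tested. With the length trend of each library removed, an alternative chosen after seeing the data, again 0 members were called (limma, BH) and their median log2 change was -0.02.

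**Figure D3:**
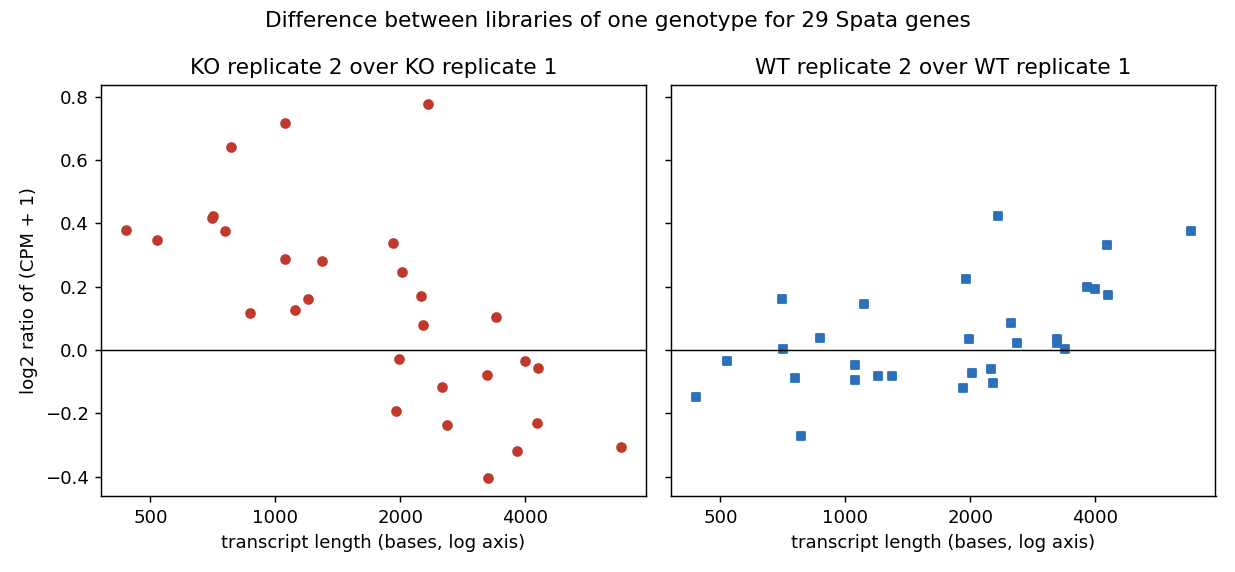
Log2 ratio of (CPM + 1) between the libraries of a genotype against mean transcript length in bases (log axis), a point per Spata gene. Between KO replicates (left) 11 of 11 members of up to 1200 bases lie above 0 and 9 of 10 above 2500 bases lie below. Between WT replicates (right) the long members all lie above 0.

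In counting terms, the KO libraries differed beyond the 95% range of counting error for 8 members and the WT libraries for 5. Over all genes the shares were 10.5% in KO and 10.2% in WT. A gap of a given log2 size exceeds counting error more readily at high read numbers. Of the members 62.1% averaged at least 100 CPM, but 12.3% of all genes did, so counts and shares are not compared at like levels. Both compare libraries, not genotypes. The median absolute log2 gap was 0.25 between KO replicates and 0.09 between WT replicates, beside a median absolute log2 change of 0.11 between genotypes. The genotype value is smaller than the KO gap and larger than the WT gap. It compares means over libraries while the gaps compare single libraries, so their sizes are not on equal terms. The KO and WT gaps are also at unlike depth, with 748638 and 597937 estimated reads in KO against 1719356 and 1807697 in WT. Counting error is larger at lower depth, and its part in the KO gap was not tested.

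Some single transcripts differed more between genotypes than any whole Spata gene did, without passing the test. The 29 members have 52 deposited transcripts, 36 of them in 13 genes with several. Tested each on its own among 28243 transcripts, 0 of the 52 were called (limma, lowest BH-adjusted p = 0.661, 0% of all transcripts called), and 5 had an unadjusted p under 0.05, where 6.26% of all transcripts did. These 5 lie in Spata2l, Spata7 and Spata19. The sources used here do not say how reads were divided among transcripts of a gene, so a transcript's value is an allocation and not a count of reads unique to it.

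Within Spata2l the 2100-base form held a larger share of the gene in both KO libraries than in either WT library. The 2100-base transcript had 21.5 and 29.8 CPM in KO, against 14.0 and 5.67 CPM in WT. The 2404-base transcript had 0.117 and 0.0396 CPM in KO, against 11.6 and 7.09 CPM in WT, and the 2432-base transcript had 0.0662 and 0.0224 CPM in KO, against 6.60 and 21.8 CPM in WT. So the 2100-base form took 76.3% and 99.8% of the gene in KO and 37.6% and 16.4% in WT. The whole gene rested on 21.1 and 17.9 estimated reads in KO and 63.9 and 62.4 in WT. In Spata7 the 2137-base transcript had 103 and 103 CPM in KO, against 71.0 and 49.96 CPM in WT, and in Spata19 the 656-base transcript had 72.7 and 70.3 CPM in KO, against 47.3 and 39.1 CPM in WT. Both were higher in both KO libraries, while the sum over Spata19 overlapped between genotypes. None of these transcripts passed (limma, BH-adjusted p from 0.661 to 0.795).

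**Figure D4:**
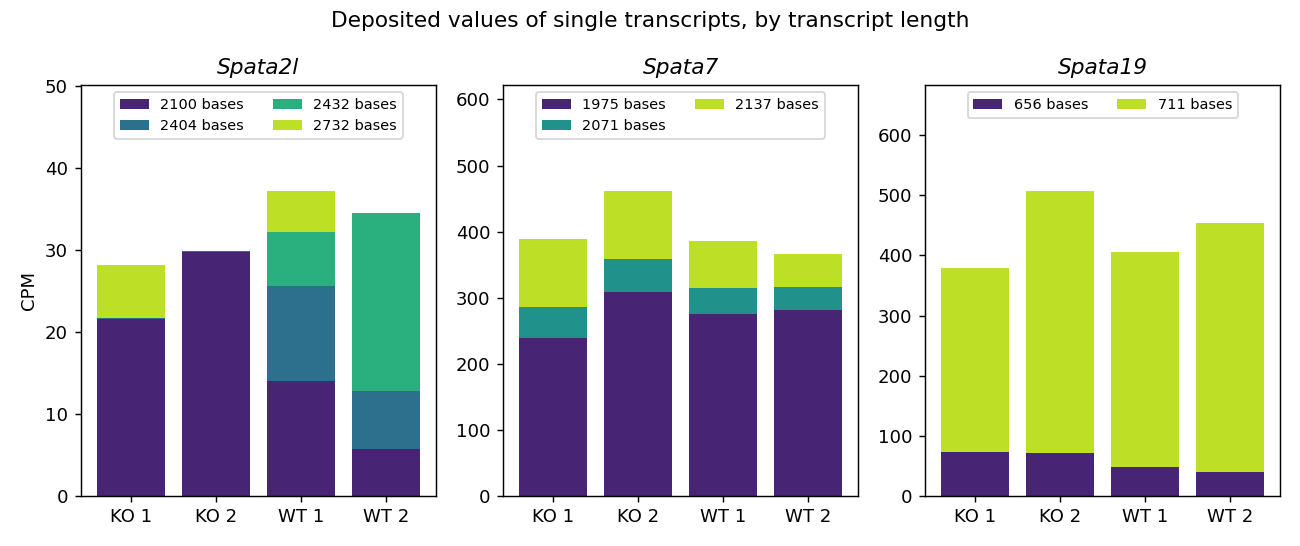
Deposited CPM of the transcripts of Spata2l, Spata7 and Spata19 in each library, stacked by transcript length, with KO libraries left of WT libraries. The 2100-base form makes up most of Spata2l in KO (76.3% and 99.8%) and less in WT (37.6% and 16.4%).

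Promoters were available for 27 of the 29 members, as windows from 250 bases before to 50 after the start (RefSeq, GRCm38.p6, an earlier build than the mm39 of the tables). Of the members with the smallest unadjusted p that have a promoter, Spata4 and Spata7 lay above 0 and Spata2 and Spata5 below 0, and their windows are printed 5′ to 3′ on the gene's strand so that both directions can be seen side by side. Capitals mark matches on either strand to the CRE core TGACG (the full CRE, TGACGTCA, contains it on both strands), to the X-box core GTTGCC of RFX factors, or to the TATA box TATAAA. CRE and X-box elements are bound in spermatids by CREM and RFX2.
Spata4, chr8:54600531-54600830, plus strand: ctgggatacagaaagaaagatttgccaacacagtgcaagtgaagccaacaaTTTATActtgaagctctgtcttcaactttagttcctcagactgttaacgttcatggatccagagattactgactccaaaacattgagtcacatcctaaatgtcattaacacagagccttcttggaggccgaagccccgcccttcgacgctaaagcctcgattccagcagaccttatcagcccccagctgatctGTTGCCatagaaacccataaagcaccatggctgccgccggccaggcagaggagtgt
Spata7, chr12:98627892-98628191, plus strand: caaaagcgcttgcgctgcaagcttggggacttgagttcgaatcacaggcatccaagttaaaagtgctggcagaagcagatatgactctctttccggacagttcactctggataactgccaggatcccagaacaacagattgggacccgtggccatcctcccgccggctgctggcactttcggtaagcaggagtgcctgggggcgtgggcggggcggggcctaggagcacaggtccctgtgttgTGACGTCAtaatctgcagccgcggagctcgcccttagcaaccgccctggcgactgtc
Spata2, chr2:167492825-167493124, minus strand: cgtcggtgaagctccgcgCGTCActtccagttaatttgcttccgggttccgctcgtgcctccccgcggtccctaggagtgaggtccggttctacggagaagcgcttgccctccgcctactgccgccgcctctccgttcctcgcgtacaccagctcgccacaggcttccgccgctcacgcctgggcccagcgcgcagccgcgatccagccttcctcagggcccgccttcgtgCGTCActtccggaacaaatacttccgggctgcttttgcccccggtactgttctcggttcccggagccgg
Spata5, chr3:37419700-37419999, plus strand: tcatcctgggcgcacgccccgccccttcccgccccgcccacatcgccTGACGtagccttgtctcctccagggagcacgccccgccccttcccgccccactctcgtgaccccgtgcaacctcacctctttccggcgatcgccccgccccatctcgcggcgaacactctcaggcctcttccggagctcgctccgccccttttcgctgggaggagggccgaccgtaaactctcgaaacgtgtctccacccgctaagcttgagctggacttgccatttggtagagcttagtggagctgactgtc
Over the 34 windows of the 27 members, TGACG occurred in 32.4%, against 20.8% of all 32851 windows, GTTGCC in 11.8% against 12.5%, and TATAAA in 5.88% against 13.6%. The full CRE occurred in 1 member window, that of Spata7, and in 1.79% of all windows. Matches are letters in a window and not shown to be sites. CRE cores stood in 9 members. Of these, Spata7, Spata32 and Spata5l1 lay above 0, the latter pair close to it with log2 changes of 0.01 and 0.04. Spata1, Spata2, Spata5, Spata6, Spata18 and Spata48 lay below 0. Any tie between these matches and the changes was not tested.

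Genes that work with Spata members were set beside them in 7 lists, 64 genes measured in all. None was called (limma, lowest BH-adjusted p = 0.950, beside 0.00566% of all genes), and 1 had an unadjusted p under 0.05, Cyld. The median log2 change was -0.01, with 28 genes above 0 and 36 below. CYLD, the deubiquitinase that Spata2 binds, had 19.2 and 31.8 CPM in KO, against 13.3 and 13.7 CPM in WT, higher in both KO libraries (log2 change 0.83, 95% interval 0.08 to 1.58; limma, BH-adjusted p = 0.950). Without KO replicate 1, Cyld was called (limma, BH-adjusted p = 0.0162), in the fit that calls 954 genes. Sharpin, a subunit of the linear ubiquitin ligase, had 20.6 and 26.8 CPM in KO, against 35.4 and 31.8 CPM in WT. In this list of 8 genes 0 were called, 2 lay above 0 and 6 below, and the median was -0.30.

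In the head-tail coupling list 0 of 11 measured genes were called, with 3 above 0 and 8 below and a median log2 change of -0.08. Sun5, the nuclear membrane anchor of the sperm neck, had 91.6 and 90.3 CPM in KO, against 103.5 and 107 CPM in WT. Pmfbp1, which lies in the same coupling structure, had 658.5 and 577 CPM in KO, against 672 and 712 CPM in WT. Among 15 acrosome biogenesis genes, known for round-headed sperm, 0 were called, 4 lay above and 11 below 0, and the median was -0.05. There Capza3, an actin-capping subunit of spermatids, had 246 and 330 CPM in KO, against 226 and 221 CPM in WT, and was called without KO replicate 1 (limma, BH-adjusted p = 0.00480). Gba2, a glucosylceramidase, had 116 and 106 CPM in KO, against 134 and 126 CPM in WT. Of 12 mitochondrial sheath genes 0 were called, with 5 above and 7 below 0 and a median of -0.01. Its member Armc12, needed to align mitochondria in the sheath, had 235 and 303 CPM in KO, against 331 and 315 CPM in WT, and was called without KO replicate 2 (limma, BH-adjusted p = 0.0351), in a fit that calls 413 genes. The channel gene Vdac3 had 231 and 254 CPM in KO, against 223 and 196 CPM in WT.

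The smaller lists were alike in this respect. The calcineurin list of 6 genes includes the subunits that Spata33 brings to mitochondria and also a channel gene of the mitochondrial sheath list. Of the 6 genes 0 were called, 4 lay above 0 and 2 below, with a median of 0.05. The genes named next were picked by smallest unadjusted p and not for a tie to Spata33. The regulatory subunit gene Ppp3r1 had 10.7 and 20.9 CPM in KO and 11.6 and 8.85 CPM in WT, and the catalytic subunit gene Ppp3ca had 92.9 and 75.5 CPM in KO and 75.4 and 70.0 CPM in WT. Of 6 measured genes of AAA ATPase and 60S ribosome maturation 0 were called, 5 lay above and 1 below 0, with a median of 0.10, and Nvl, a nucleolar AAA ATPase, had 31.3 and 22.3 CPM in KO and 20.9 and 16.1 CPM in WT. Of 7 ciliary connecting zone genes 0 were called, 6 lay above and 1 below 0, with a median of 0.06. Rpgr, of the same zone as Spata7, had 39.8 and 43.8 CPM in KO and 34.7 and 32.2 CPM in WT. None of these named genes passed (limma, BH-adjusted p = 0.950 for each).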

How the data were processed

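Testis total RNA of 2 KO and 2 WT samples was made into libraries with the Ion Total RNA-Seq Kit v2, per the labels' protocols. The submitters' processing notes name STAR, Partek and mm39, with no versions or roles. The authors deposited a table per library with the same 29342 RefSeq transcripts. Each deposited column sums to 1000000 and the commonest low values are the same for short and long transcripts, so the unit was inferred to be CPM. Groups and replicate numbers were read from the sample titles.

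Transcripts were summed per symbol (10 symbols on several chromosomes kept apart) into 17934 genes, of which 17654 averaged 1 CPM or more. These were tested on log2(CPM + 1) in R 4.3.3 with limma 3.58.1, whose two-sided moderated test used a trend of variance on level and Benjamini-Hochberg (BH) adjustment, at an adjusted p under 0.05. Fold changes on this scale understate the change of low genes. Depth and estimated reads come from the CPM of 1 read. Within 0.01 reads, 21.1% to 49.2% of genes per library had whole reads, so no count model was used. Counting error covers reads only; the labels mention no molecular identifiers. The members and gene lists were chosen with earlier results of these data known. Every member may be named; in each partner list the text names genes with the smallest unadjusted p. A further gene with a matching symbol is not reported here. Sequences came from RefSeq promoter windows and GENCODE M21 transcripts. The fit was tested on simulated data with known changes. The alternatives changed the pseudocount (0.1 or 5 CPM), the filter (none, or an average of 5 CPM) or the scaling (TMM factors or quantiles), or used no trend, a replicate block, the highest transcript per symbol, thinning to the shallowest library or an adjusted p under 0.1, or left out each library in turn; transcripts on their own and removal of a length trend were added after seeing the data.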

Additional observations from a re-analysis of the deposited data

How the results depend on the processing

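Under every alternative that kept all 4 libraries, 0 Spata genes were called, as in the result given above. The replicate block also called 0, while it called 24 of all genes; the numbers in the titles are not said to pair samples, and the correlation of same-number deviations was -0.00585 over all genes and -0.398 over the Spata genes. Leaving out 1 library at a time gave a family median from -0.11 to 0.027. The summed KO minus WT difference then ran from -588.0 to 189.6 CPM, beside -199.2 CPM with all libraries. With a library left out, 14 to 25 Spata genes did not overlap. A lone library falls outside a pair more often, by construction, than 2 libraries separate from 2. The share over all genes was not taken for these settings. A lone library is assumed to vary like the other genotype. Calls from such fits, such as that of Spata4 without KO replicate 1, are therefore not counted as results here. With the highest transcript per symbol, 4 Spata genes did not overlap, and the share over all genes under that setting was not taken. That setting also reversed the log2 change of Spata1 (0.44), Spata13 (-1.49), Spata16 (-0.016), Spata17 (-0.13), Spata19 (-0.077), Spata2l (1.40), Spata3 (0.16) and Spata7 (-0.034); by its construction it drops the other transcripts. Thinning to the shallowest library reversed Spata19 (-0.082), Spata31d1d (0.13) and Spata46 (-0.055), and the cause was not tested. Leaving out libraries reversed 14 genes, whose log2 changes then ran from -0.20 to 0.14 for Spata1, -0.0013 to 0.37 for Spata13, -0.18 to 0.24 for Spata19, -0.20 to 0.039 for Spata20, -0.34 to 0.088 for Spata24, -0.11 to 0.0067 for Spata3, -0.020 to 0.31 for Spata31d1a, -0.20 to 0.12 for Spata31d1d, -0.064 to 0.081 for Spata32, -0.34 to 0.0071 for Spata33, -0.12 to 0.60 for Spata4, -0.13 to 0.25 for Spata46, -0.35 to 0.43 for Spata5l1 and -0.065 to 0.22 for Spata9. Of 434 gene values under alternatives, 403 kept direction and side of the threshold, 30 reversed and 1 became a call; 11 genes reversed nowhere. Changing the filter, the trend or the replicate block leaves the log2 changes as they were by construction, so those values could not reverse. The depth of the KO libraries limits Spata2, Spata2l, Spata13 and Spata5l1 most.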
